A study of Mus musculus with 12 samples.

Results

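The 7 genes described here encode the DLX homeodomain factors of GABAergic cells, Dlx1, Dlx2, Dlx5 and Dlx6, both GABA-synthesising enzymes, Gad1 and Gad2, and the vesicular GABA transporter, Slc32a1. They were chosen by name, and each is represented by the probe sets of the array that carry its symbol and no other. This gave 12 probe sets for 7 genes, out of 22343 probe sets with 1 symbol for 11361 genes. All 12 probe sets passed the filter on low values, as did 16010 of the 22343. Expression was measured on 12 Affymetrix mouse arrays of cortical cells purified by fluorescence-activated cell sorting, 3 arrays in each of 4 groups. MGE cells, which derive from the medial ganglionic eminence, were taken at E14.5 and E18.5 from embryos with the R26R-YFP fl/fl reporter and the Nkx2-1-Cre Tg driver. Embryos with Nkx2-1-Cre and the Dlx1-lox-Venus-lox reporter gave the CGE cells, at E16.5 and E18.5. All embryos carried the Nkx2-1-Cre transgene on a mixed C57BL/6 and CBA background, and dissected cortices were pooled; how many embryos went into each array is not stated in the sources read. The YFP reporter stays on in every descendant of a cell that expressed the Cre, glia included, whatever that cell expresses later. The Venus reporter is driven by Dlx1 and removed by the Cre, so that it marks cells from the lateral and caudal eminences. CGE cells were therefore selected through Dlx1 and MGE cells were not, so that no difference between lineages in a DLX gene or a gene of the same cells is independent of the sort. The earlier MGE and CGE groups also differ in age, so that lineage and stage cannot be told apart in that comparison.

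DLX factors are homeodomain transcription factors expressed in the ganglionic eminences as neural progenitors become GABAergic neurons. Their genes lie in convergently transcribed pairs, Dlx1 with Dlx2 and Dlx5 with Dlx6, and neighbours share enhancers. Dlx1 and Dlx2 act early and are needed for the migration of interneurons out of the subpallium, and the Dlx5 and Dlx6 pair acts downstream of them. Gad1 and Gad2 encode GAD67 and GAD65, which make GABA from glutamate, and Slc32a1 encodes VGAT, which loads GABA into synaptic vesicles.

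The lineage comparisons of marker genes mostly went with the group labels, though the lists were not exclusive to them. On the CGE arrays the MGE lineage list still had means of 10.17 to 10.90 at E16.5 and 9.76 to 10.28 at E18.5. Between the MGE stages 1 tested CGE lineage gene was called higher and 2 lower, with a largest rise of 4.47. All 6 tested MGE lineage genes were higher in MGE cells in the early lineage comparison (MGE E14.5 minus CGE E16.5) and 5 of 6 in the late one (MGE E18.5 minus CGE E18.5), while all 8 and 7 of 8 tested CGE lineage genes were lower. Values are log2 intensities that the authors normalised, with array medians between 7.75 and 7.81. Differences are log2 values from 1 limma fit to all 12 arrays, with the standard error (SE). Probe sets were kept above a level of 7.10 to 7.17 on at least 3 arrays. No detection calls were used, and a group mean below that level may lie at background, so that the size of a difference from such a group is uncertain. A gene can pass this filter through 1 high group alone, and a call towards that group is then not independent of the filter. A gene was called where the p-value, adjusted by Benjamini-Hochberg over 8796 genes, was under 0.05. MGE E18.5 cells stood apart in their glial genes. The mean level of 11 oligodendrocyte precursor genes was 10.81 to 11.48 on the MGE E18.5 arrays, against 7.40 to 7.54 at MGE E14.5, 6.02 to 6.31 at CGE E16.5 and 6.14 to 6.55 at CGE E18.5. In sorted bulk cells, fewer cells of a type and less RNA per cell cannot be told apart.

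Promoter sequence is shown for 3 of the genes that were called in the late lineage comparison. The RefSeq promoter table (GRCm38.p6) held 5 of the 7 genes, all except Dlx5 and Dlx6. Each line gives the 250 bases before the start site on the strand of the gene, and capitals mark matches to the motifs searched.
Dlx1, chr2:71529195-71529444, plus strand: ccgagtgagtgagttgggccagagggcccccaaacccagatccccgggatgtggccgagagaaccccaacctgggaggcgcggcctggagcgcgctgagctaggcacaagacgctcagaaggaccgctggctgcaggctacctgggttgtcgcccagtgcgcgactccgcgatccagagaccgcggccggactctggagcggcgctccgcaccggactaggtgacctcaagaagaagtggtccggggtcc
Dlx2, chr2:71546755-71547004, minus strand: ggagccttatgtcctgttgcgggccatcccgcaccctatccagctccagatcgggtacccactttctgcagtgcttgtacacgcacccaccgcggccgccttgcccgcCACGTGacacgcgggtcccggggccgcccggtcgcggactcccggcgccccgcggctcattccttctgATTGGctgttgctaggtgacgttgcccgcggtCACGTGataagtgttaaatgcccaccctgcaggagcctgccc
Gad1, chr2:70561879-70562128, plus strand: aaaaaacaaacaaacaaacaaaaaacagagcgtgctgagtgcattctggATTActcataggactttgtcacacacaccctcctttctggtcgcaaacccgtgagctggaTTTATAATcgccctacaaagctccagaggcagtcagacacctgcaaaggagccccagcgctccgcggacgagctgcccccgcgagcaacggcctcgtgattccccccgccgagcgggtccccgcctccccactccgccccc
Motifs were searched on both strands. The Dlx1 window held no match to any of the 5 motifs. The Dlx2 window held the palindromic E-box CACGTG at 142 and at 42 bases before the start, and a CCAAT box, read as ATTGG, at 74 bases. CACGTG was held by 6.02% of the 32851 promoter windows of this length, and CCAAT by 33.8%. The Gad1 window held a TATA box, read as TTTATA, at 141 bases, a motif found in 12.4% of all windows. It also held the short homeodomain core ATTA at 201 bases and, as TAAT, at 137 bases, where it overlaps the TATA box; 54.9% of all windows held this core. The longer homeodomain core TAATT was found in 25.0% of all windows and in 0 of the 5 member windows. The G and C content of the 5 windows ran from 58.0% in Gad1 to 68.0% in Dlx1, above the 52.4% median of all windows. Such matches describe the letters of these windows, and factor binding was not measured.

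Dlx1, read by probe set 1449470_at, was the member with the widest span between group means when each gene was read from its brightest probe set. That span was 1.22 on the log2 scale, against a median of 0.47 over all genes tested. By its dimmer probe set, 1416562_at, Gad1 had group means from 9.13 at MGE E18.5 to 10.35 at CGE E18.5. The log2 intensity of Dlx1 was 12.57, 12.62 and 12.58 on the CGE E16.5 arrays and 12.26, 12.45 and 12.26 at CGE E18.5. In MGE cells it was 11.95, 11.86 and 11.85 at E14.5 and 11.43, 11.53 and 11.16 at E18.5. No pair of groups overlapped. The early lineage difference was -0.70 ± 0.12 (SE, n = 3 arrays per group, limma adjusted p = 0.0020) and the late one -0.95 ± 0.12 (adjusted p = 9.7e-05), which makes Dlx1 1.93-fold higher in CGE E18.5 than in MGE E18.5 cells. Both differences concern the gene whose regulatory sequence selected the CGE cells. From E14.5 to E18.5 Dlx1 fell by 0.51 in MGE cells (SE 0.12, adjusted p = 0.0087). In CGE cells the difference from E16.5 to E18.5 was -0.26 ± 0.12 and was not called (adjusted p = 0.171).

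Dlx2, the other gene of the pair, had the same order of group means as Dlx1 over a narrower span of 0.50. Its intensity by probe set 1448877_at was 13.15, 13.22 and 13.25 at CGE E16.5 and 13.16, 13.21 and 13.19 at CGE E18.5. At MGE E14.5 it was 12.89, 12.79 and 13.05, and at MGE E18.5 12.81, 12.70 and 12.59. Every CGE array lay above every MGE array. The late lineage difference was called, at -0.48 ± 0.11 (adjusted p = 0.0061), and scaling each array to immature neuron genes took it to -0.33 (adjusted p = 0.0845). The early difference was -0.30 ± 0.11 (adjusted p = 0.109), and it was called with limma-trend (adjusted p = 0.0142) and with array weights (adjusted p = 0.0148). Neither lineage changed with stage beyond the threshold, with -0.20 ± 0.11 in MGE cells (adjusted p = 0.201) and a 95% interval of -0.25 to 0.21 in CGE cells.

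Dlx5 did not separate the lineages at the earlier stages. By probe set 1449863_a_at, whose probes are shared by alternative transcripts of the gene, it measured 12.05, 12.01 and 12.28 at MGE E14.5 and 12.10, 12.20 and 12.33 at CGE E16.5, which overlap. At CGE E18.5 it measured 12.27, 12.24 and 12.10, again within the same range. The MGE E18.5 arrays alone were lower, at 11.62, 11.55 and 11.20. The late lineage difference was -0.75 ± 0.14 (adjusted p = 0.0018), and Dlx5 fell by 0.66 between the MGE stages (SE 0.14, adjusted p = 0.0052). The early lineage difference was -0.10 ± 0.14 (95% interval -0.39 to 0.20). The change of the lineage difference, the late minus the early one, was -0.65 ± 0.19 and missed the threshold (adjusted p = 0.0588), which it passed with limma-trend (adjusted p = 0.0159) and with genes read as the mean of their probe sets (adjusted p = 0.0489).

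Dlx6 was lowest in MGE E18.5 cells and highest, with the widest spread, in CGE E18.5 cells. Probe set 1452507_at gave 10.75, 10.84 and 10.67 at MGE E14.5 and 10.19, 10.35 and 9.85 at MGE E18.5. It gave 10.59, 10.83 and 10.67 at CGE E16.5 and 10.88, 11.48 and 10.78 at CGE E18.5, where replicate 2 stood above the other arrays. The late lineage difference was -0.92 ± 0.18 (adjusted p = 0.0036), a 1.89-fold higher level in CGE cells, whereas the early difference was 0.06 ± 0.18 (adjusted p = 0.895). Read from the brightest probe set of each gene, Dlx6 was the member whose lineage difference changed between stages past the threshold, by -0.98 ± 0.26 (adjusted p = 0.0373), and 10 of 24 alternative settings lost that call. Its fall of 0.63 between the MGE stages (SE 0.18, adjusted p = 0.0314) was lost in 8 of 25. The rise of 0.35 ± 0.18 between the CGE stages was not called (adjusted p = 0.248).

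**Figure D1:**
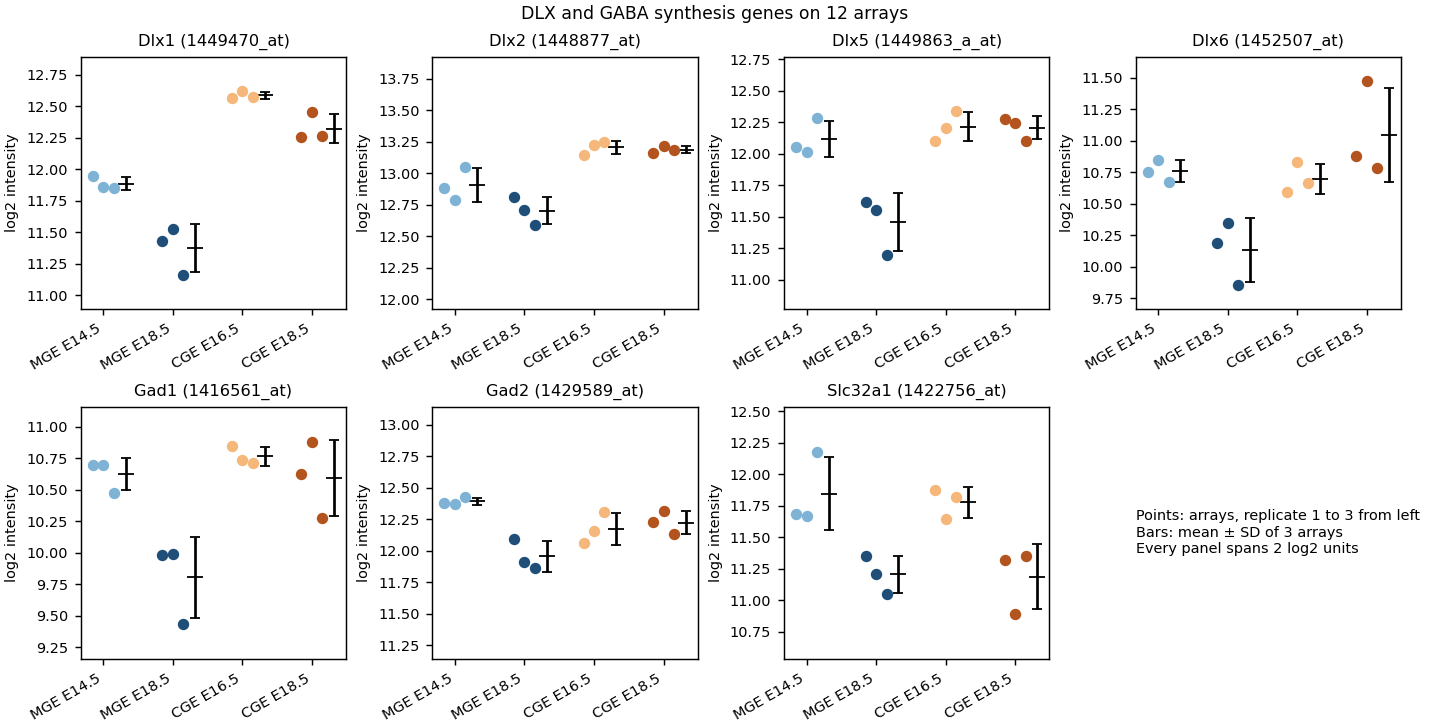
Log2 intensity (y axis) of the representative probe set of each of the 7 genes on the 12 arrays, by group (x axis); points are arrays and bars are the mean ± SD of 3 arrays. MGE E18.5 replicate 3 was the lowest of the 12 arrays for 6 of the 7 genes, and Slc32a1 was lowest on CGE E18.5 replicate 2.

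Gad1, which encodes the enzyme that makes most GABA in the developing brain, was low in MGE E18.5 cells by both of its probe sets. Probe set 1416561_at, the brighter one, gave 10.70, 10.70 and 10.48 at MGE E14.5, 10.85, 10.74 and 10.71 at CGE E16.5 and 10.62, 10.88 and 10.28 at CGE E18.5. It gave 9.99, 9.99 and 9.44 at MGE E18.5, below the 9 other arrays. The late lineage difference was -0.79 ± 0.18 (adjusted p = 0.0079), and the level fell by 0.82 between the MGE stages (SE 0.18, adjusted p = 0.0077). The second probe set, 1416562_at, gave 9.25, 9.23 and 8.91 at MGE E18.5 against 10.23, 10.50 and 10.31 at CGE E18.5. In a fit over all 16010 kept probe sets its late lineage difference was -1.22 ± 0.13 (adjusted p = 4.0e-05), or 2.32-fold higher in CGE cells. Of all kept probe sets 9.68% were called lower in MGE cells in that comparison and 2.60% in the change of the lineage difference. The probe sets differed in the change of the lineage difference, which was -1.24 ± 0.19 by 1416562_at (adjusted p = 0.0013) and -0.65 ± 0.26 by 1416561_at (adjusted p = 0.150), of which only the first was called. Neither was called in the early lineage comparison or between the CGE stages.

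Gad2 encodes the second glutamate decarboxylase, which is found at nerve terminals. Its brighter probe set, 1429589_at, varied least of the 7 genes, with group means within 0.43 of each other. It gave 12.38, 12.37 and 12.42 at MGE E14.5 and 12.10, 11.91 and 11.86 at MGE E18.5. In CGE cells it gave 12.06, 12.16 and 12.31 at E16.5 and 12.22, 12.31 and 12.13 at E18.5. The fall of 0.43 between the MGE stages was called (SE 0.11, adjusted p = 0.0155). The lineage differences were 0.22 ± 0.11 early (adjusted p = 0.274) and -0.27 ± 0.11 late (adjusted p = 0.104), and neither was called. Probe set 1421978_at gave 11.99, 12.09 and 11.91 at MGE E14.5 against 11.43, 11.31 and 11.46 at CGE E16.5. By it Gad2 was higher in the MGE cells of the early comparison, by 0.60 ± 0.15 (adjusted p = 0.0266 over probe sets), where 4.17% of all kept probe sets were called higher in MGE cells. By the same probe set the lineage difference changed between stages, with a 95% interval of -1.47 to -0.54 (adjusted p = 0.0113). Gad2 was thus the one member with a called early difference towards MGE cells, by 1 of its 2 probe sets and by the mean of both (0.41, adjusted p = 0.0440).

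Slc32a1 separated the stages and not the lineages. Probe set 1422756_at gave 11.69, 11.67 and 12.18 at MGE E14.5 and 11.88, 11.64 and 11.82 at CGE E16.5. At E18.5 it gave 11.35, 11.21 and 11.05 in MGE cells and 11.32, 10.89 and 11.35 in CGE cells. Both E18.5 groups lay below both earlier groups, with no overlap between stages and with overlap between lineages at each stage. The late lineage difference was 0.02 with a 95% interval of -0.35 to 0.39, and the early one 0.07 with an interval of -0.31 to 0.44. The level fell by 0.64 between the MGE stages (SE 0.17, adjusted p = 0.0196) and by 0.59 between the CGE stages (SE 0.17, adjusted p = 0.0455). The CGE call was lost in 18 of 25 alternative settings, and the difference without CGE E18.5 replicate 2 was -0.44 (adjusted p = 0.151). The other 3 probe sets of the gene, 1456457_at, 1447573_at and 1447574_s_at, had differences of -0.35, -0.96 and -0.72 between the CGE stages and of -0.48, -0.58 and -0.40 between the MGE stages, and none of these was called. Of all kept probe sets, 6.31% were called lower between the CGE stages and 9.17% between the MGE stages. The last 2 were dimmer, at 6.64 to 9.36 on the 12 arrays, and spread more within groups.

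**Figure D2:**
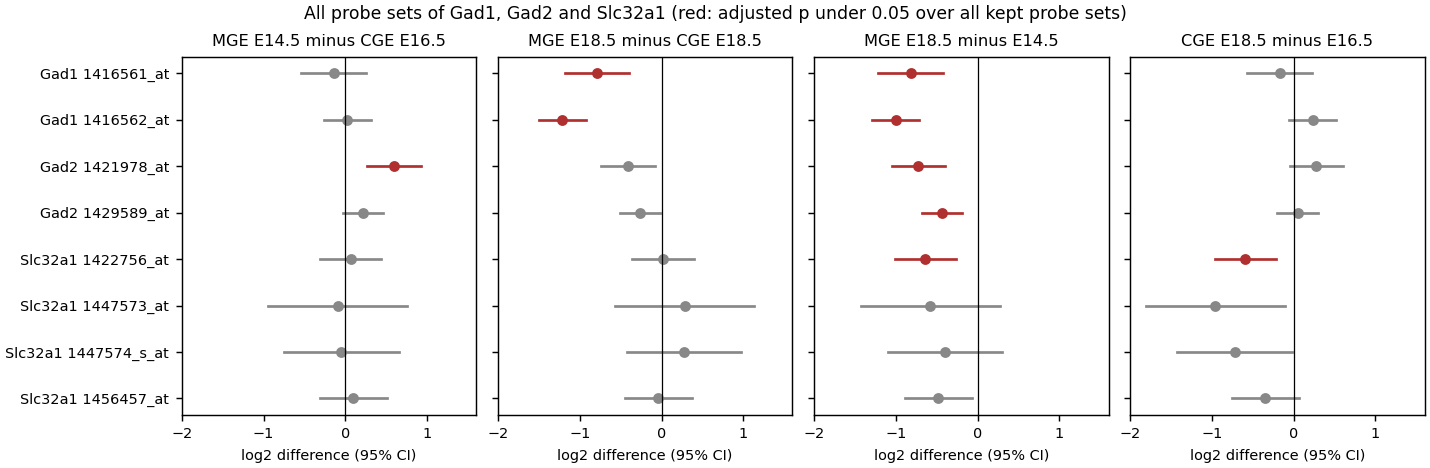
Log2 difference with its 95% confidence interval (x axis) for all 8 probe sets of Gad1, Gad2 and Slc32a1 (y axis) in 4 comparisons; red marks an adjusted p under 0.05 over all kept probe sets. Both Gad1 probe sets were called lower in the late lineage comparison, and 1 of 4 Slc32a1 probe sets was called in each stage comparison.

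Over the 7 genes, 1 was called lower in MGE cells in the early lineage comparison, where 5.91% of all genes were called lower, and 5 were called lower in MGE cells in the late one, where 9.86% of all genes were called lower. All 4 DLX genes and Gad1 made up the late calls. Between the MGE stages 6 of 7 were called lower, against 9.77% of all genes, and between the CGE stages 1 of 7, against 6.37%. The change of the lineage difference was called lower for 1 of 7, against 1.88% of all genes. The median late lineage difference of the DLX genes was -0.83, beside a median of -0.02 over all genes tested. For Gad1, Gad2 and Slc32a1 it was -0.27. Between the MGE stages the medians were -0.57 for the DLX genes and -0.64 for the other 3, beside -0.06 over all genes. MGE and CGE groups did not overlap in the late comparison for 6 of the 7 genes, and for 36.8% of all genes. The comparisons share arrays, so their calls are not independent of each other.

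**Figure D3:**
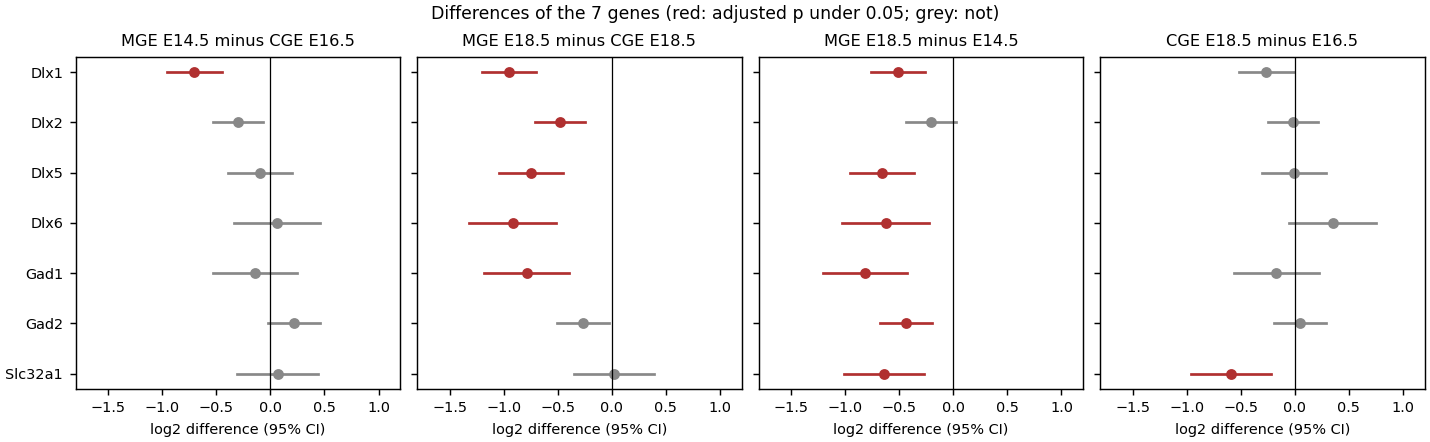
Log2 difference with its 95% confidence interval (x axis) for the 7 genes (y axis) in the early and late lineage comparisons and between the stages of each lineage; red marks an adjusted p under 0.05. The DLX genes and Gad1 were lower in MGE E18.5 than in CGE E18.5 cells, and Slc32a1 lay at 0.02.

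The order of the group means differed by gene. Dlx1 ran from CGE E16.5 (12.59) through CGE E18.5 (12.32) and MGE E14.5 (11.89) to MGE E18.5 (11.37), and of these neighbouring steps only the one between the CGE groups was not called. Dlx2 had the same order, with no neighbouring pair called. For Dlx5, Dlx6 and Gad1 no step among the upper 3 groups was called, and only the step down to MGE E18.5 was called. For Gad2 no neighbouring pair was called. For Slc32a1 the single called step lay between CGE E16.5 (11.78) and MGE E18.5 (11.20).

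MGE E18.5 cells, in which the levels of 6 genes were lowest by group mean, were also the cells with the glial genes. Of the 11 oligodendrocyte precursor genes, 10 were called higher both in the late lineage comparison (median 5.47) and between the MGE stages (median 3.98), where 13.0% and 11.4% of all genes were called higher. They included Sox10 (6.13 and 4.59) and Nkx2-2 (6.49 and 4.85), transcription factors of this lineage, and Gpr17 (5.23 and 4.89), a receptor of its maturing cells. These 3 genes lay below the filter level in the other groups, with means of 4.29 to 6.21. They passed the filter through their MGE E18.5 level, so their calls towards these cells are not independent of the filter. The count of 10 includes them, and the sizes of their differences are uncertain. The mean of all 11 genes also lay below the filter level in CGE cells, at 6.02 to 6.31 at E16.5 and 6.14 to 6.55 at E18.5. Other genes of the count can therefore share this limit, and the size of the late median of 5.47 is uncertain too. Of 9 tested radial glia and astrocyte genes, 6 were called higher in each of these comparisons. One gene, Pax6, a homeodomain factor also found in neuronal precursors, was called lower in the late one (5.56 at MGE E18.5 against 10.81 at CGE E18.5). Its MGE E18.5 mean lay below the filter level, so the size of its difference is uncertain. The radial glia and astrocyte list had means of 9.93 to 10.19 at MGE E18.5, 8.21 to 8.89 at MGE E14.5, 8.83 to 9.07 at CGE E16.5 and 9.31 to 9.60 at CGE E18.5. The lowest members and the highest precursor level fell on the same array: MGE E18.5 replicate 3 had a precursor mean of 11.48 and was the lowest of its group for all 7 genes. Without that array, 5 of 7 genes were still called in the late lineage comparison, and 3 of 7 between the MGE stages. The part of the glial genes in the DLX and GABA differences was not tested. Both tested microglial genes, C1qb and Csf1r, rose between the stages of each lineage, by 2.18 and 2.63 in MGE cells and 0.98 and 2.36 in CGE cells. Neither was called in the late lineage comparison. Their earlier means of 4.29 to 5.80 lay below the filter level. The CGE E18.5 mean of C1qb also lay below that level, so the size of its rise in CGE cells is uncertain.

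Of 9 tested immature neuron genes, 3 were called lower between the MGE stages, namely Stmn2 (-1.25), Elavl4 (-0.41) and Tubb3 (-0.43), and 2 in the late lineage comparison, Stmn2 (-1.32) and Tubb3 (-0.40). Of all genes, 9.77% and 9.86% were called lower in these comparisons. The list medians were -0.18 and -0.03, beside -0.06 and -0.02 over all genes. Stmn2, which encodes a microtubule regulator, thus fell further than any of the 7 members, while Gap43, a growth cone gene, lay at 0.72 between the MGE stages and was not called. The list mean was 11.68 to 11.80 on the MGE E18.5 arrays, 12.07 to 12.10 at MGE E14.5, 12.06 to 12.18 at CGE E16.5 and 11.74 to 11.98 at CGE E18.5. When each array was scaled to the mean of these genes, 4 of 7 members were called in the late lineage comparison (Dlx1 at -0.79, Dlx6 at -0.76, Gad1 at -0.63 and Dlx5 at -0.59), and 0 between the MGE stages, where Gad1 lay at -0.47 (adjusted p = 0.0919) and Dlx5 at -0.31 (adjusted p = 0.115), and 1 of 7 passed limma's unadjusted p of 0.05. That scaling moved the median of all genes to 0.14 in the late lineage comparison and 0.29 between the MGE stages. Scaled to the median immature neuron gene, a setting added after the data were seen, 5 of 7 were called in the late lineage comparison and 0 between the MGE stages, where 2 passed at an unadjusted p under 0.05. The mean change of the scaling genes between the MGE stages was -0.35 and their median change -0.18.

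**Figure D4:**
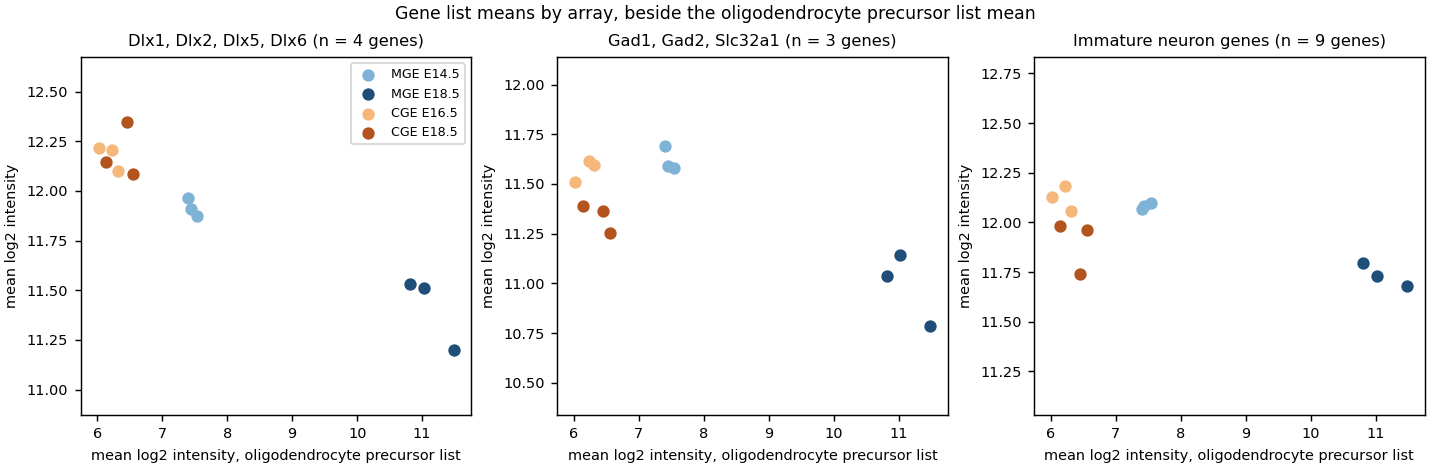
Mean log2 intensity of the 4 DLX genes, of Gad1, Gad2 and Slc32a1, and of 9 immature neuron genes (y axes) against the mean of 11 oligodendrocyte precursor genes (x axes) on the 12 arrays. The 3 MGE E18.5 arrays lie apart on the x axis, at 10.81 to 11.48, and lowest on the y axis for the DLX genes and for Gad1, Gad2 and Slc32a1.

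Genes that lie beside or across the DLX pairs did not all follow them. Dlx6os1, a long noncoding RNA that overlaps Dlx6 and is also known as Evf2, measured 11.68, 11.31 and 11.44 at CGE E16.5 and 11.43, 11.32 and 10.90 at CGE E18.5. In MGE cells it measured 10.19, 10.25 and 10.36 at E14.5 and 9.80, 9.83 and 9.34 at E18.5. It was lower in MGE cells at both comparisons, by differences of -1.21 ± 0.17 (adjusted p = 0.00075) and -1.56 ± 0.17 (adjusted p = 4.8e-05). In the early comparison, where Dlx6os1 was called, Dlx6 was not, with 0.06 against -1.21. The difference between the genes was not tested.

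Dlx1as, an antisense transcript that overlaps Dlx1, measured 12.26, 12.32 and 12.35 at MGE E14.5 and 12.13, 12.26 and 12.40 at CGE E16.5. At E18.5 it measured 12.09, 12.20 and 11.88 in MGE cells and 11.75, 11.95 and 11.98 in CGE cells. Its lineage differences were 0.04 ± 0.12 early and 0.16 ± 0.12 late (adjusted p = 0.883 and 0.372), beside -0.70 and -0.95 for Dlx1. On the other side of Dlx1 lies Metap1d, which encodes a mitochondrial methionine aminopeptidase. It was lower in MGE E18.5 cells (9.59, 9.33 and 9.36) than in CGE E18.5 cells (10.14, 10.73 and 10.27), by -0.95 ± 0.20 (adjusted p = 0.0049), and was not called early (-0.15 ± 0.20). Itga6, an integrin subunit gene with 5 RefSeq genes between it and Dlx2, and the nearest with a tested probe set on that side, was lower in MGE cells in both comparisons, at -1.62 and -1.74 (adjusted p = 0.00046 and 0.00012), with MGE means of 6.83 and 6.48 below the filter level. Sdhaf3, beyond Dlx5, was not called. Which transcript each probe set reads was taken from the platform annotation alone.

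**Figure D5:**
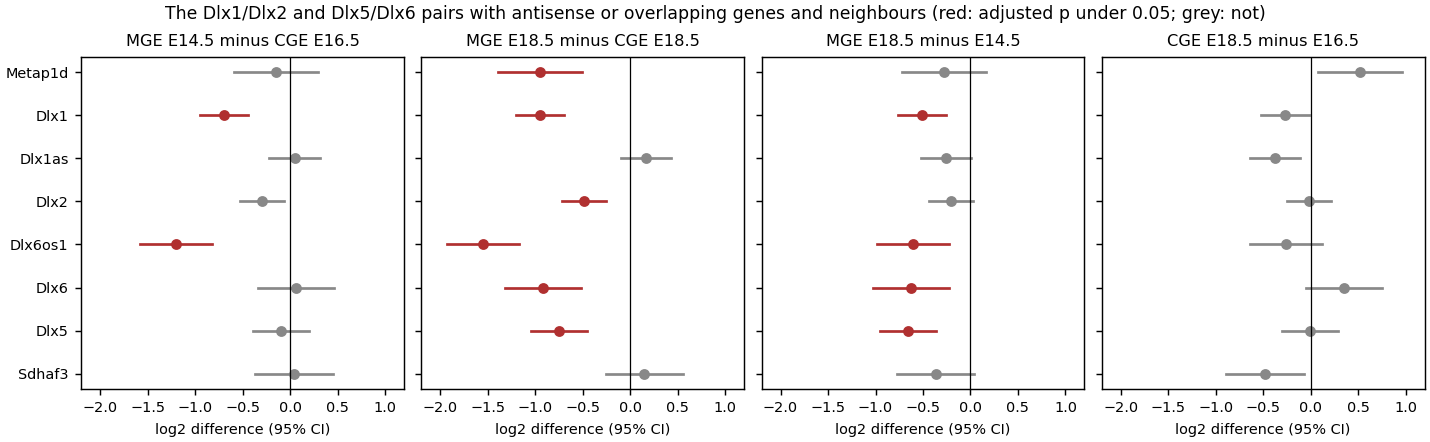
Log2 difference with its 95% confidence interval (x axis) for the DLX genes, Dlx1as, Dlx6os1 and neighbouring genes (y axis) in 4 comparisons; red marks an adjusted p under 0.05. Dlx6os1 was called lower in MGE cells in both lineage comparisons and Dlx1as in neither.

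Around the other members, Gm14204, a predicted gene that overlaps Slc32a1, fell by 0.85 between the MGE stages (SE 0.22, adjusted p = 0.0170), as Slc32a1 did by 0.64. In CGE cells its difference was -0.23 (adjusted p = 0.546). Actr5, on the other side of Slc32a1, was lower in MGE cells in the late comparison (-0.42, limma adjusted p = 0.0422). Its MGE E18.5 mean of 6.86 lay below the filter level and its other group means, 7.18 to 7.29, close to it, so the size of this difference is uncertain. The nearest tested neighbours of Gad1, Ubr3 and Gorasp2, and of Gad2, Thnsl1 and Abi1, were not called in any of the 4 comparisons.

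Other transcription factors and DLX partners of GABAergic cells were read from a list of 24, of which 13 were tested. In the early lineage comparison 2 were called higher in MGE cells and 7 lower, and in the late one 3 higher and 4 lower, with list medians of -0.88 and 0.21. Of all genes, 5.91% were called lower early, and 13.0% were called higher and 9.86% lower late. The share called higher early was 4.17% of all kept probe sets. Sp8, a zinc finger factor of CGE-derived cells, was lower in MGE cells in both, with group means of 4.31 and 4.54 in MGE cells, below the filter level, against 11.91 and 12.02 in CGE cells. Pou3f4, a POU homeodomain factor, was also lower in both (-1.69 and -2.11), and Maf, a factor of MGE-derived interneurons, was higher in both (1.09 and 1.23). Nrp2, a semaphorin receptor gene that DLX factors are known to repress, was lower in MGE cells early (-1.58) and higher late (1.38), a change of 2.96, and fell by 3.50 between the CGE stages, to a CGE E18.5 mean of 6.74 below the filter level. Vax1, a ventral forebrain homeodomain factor, rose by 1.79 between the MGE stages. Pak3, a kinase gene also repressed by DLX factors, was lower in MGE cells in both (-0.88 and -0.50). Cxcr4, a chemokine receptor of migrating interneurons, was not called in either (0.04 and 0.54).

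Among genes that make the precursors of GABA, degrade it or supply glutamate, 10 of 17 were tested and 0 were called in the early lineage comparison by limma (1 at an unadjusted p under 0.05). Late, 13.0% of all genes were called higher in MGE cells and 9.86% lower. From this list 3 were called higher and 0 lower (list median 0.10). They were Slc1a1, a glutamate transporter gene (3.01 ± 0.34, adjusted p = 5.3e-05, with a CGE E18.5 mean of 6.38 below the filter level), Aldh5a1, which encodes the last enzyme of GABA breakdown (1.46 ± 0.24), and Pdxk, which makes the cofactor of the decarboxylases (1.26 ± 0.30). Slc1a1 and Aldh5a1 also rose between the MGE stages, by 2.00 and 1.01, while Got1, an aspartate aminotransferase gene, fell by 0.53. Thus in MGE E18.5 cells Gad1 was lower and Aldh5a1 higher than in CGE E18.5 cells, beside the higher glial genes given above, whose part was not tested. Of 16 genes of other transmitters, 1 was tested, Slc18a2, the vesicular monoamine transporter gene, and it was not called in any comparison (late difference -0.98). Slc17a6, a vesicular glutamate transporter gene, lay below the filter, at 3.66 to 5.01 on the 12 arrays, and Slc17a7 was not analysed here.

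Across the 12 arrays the members followed each other unequally. These correlations are descriptions over arrays that share 4 groups. Pearson's r was highest between Dlx1 and Dlx2 (0.934) and lowest between Dlx6 and Slc32a1 (0.014). Gad1 ran closest to Dlx5 (0.898), and Slc32a1 had no r above 0.505 with any other member. Over all tested genes, the 3 closest to Dlx1 were Shb (0.973), Ube2ql1 and Frmd4b, and those closest to Dlx2 were Hmgb3 (0.956), Igfbpl1 and Sik1. Dlx5 was closest to C130071C03Rik (0.953), 4933427D14Rik and Cep70, and Dlx6 to Flna (0.928), Tspyl2 and Ccnl2. Gad1 was closest to Actg1 (0.962), Sirt7 and Tubb5, and Gad2 to Map2k6 (0.939), Mir124-2hg and 1700110I01Rik. Slc32a1 was closest to Fam117b (0.949), Ap1ar and Reep1.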

How the data were processed

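RNA of FACS-purified cells was amplified and hybridised to 12 one-colour Affymetrix arrays, 3 per group. The deposited values are log2 intensities per probe set, background-corrected and normalised between arrays by the authors; their methods name Bioconductor and the submitters' processing notes name MAS5, so the algorithm is not settled here. The table holds 27094 probe sets, of which 34 are controls, 22343 carry 1 gene symbol, 567 several and 4150 none in the platform annotation. Probe sets above the 40th percentile of their own array on at least 3 of 12 arrays were kept, which left 8796 genes, each read from the kept probe set with its highest mean over the arrays. Every column of sample values was used. Group means were fitted to all 12 arrays with limma 3.58.1 in R 4.3.3 (lmFit and eBayes, 8 residual degrees of freedom), and p-values were adjusted by Benjamini-Hochberg over all genes; the fit was tested on simulated data. The methods call the replicates independent, and p-values measure the spread between these arrays. The number of arrays limits the precision. Scaling, filter, probe set rule, test, replicate block and single arrays were varied. The text names all probe sets of the members, up to 4 called genes of a list per comparison, the 3 genes most correlated with each member and the nearest tested neighbours. The members and lists were chosen with earlier results of these data known. The list genes named beyond these rules, Cxcr4, Gap43, Pak3 and Tshz1, were chosen after their values were seen. Erythroid genes were not analysed here. Vascular, pallial neuron, LGE and cell cycle lists were read as further cell type checks.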

Additional observations from a re-analysis of the deposited data

Results flagged for a closer look

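The lineage difference of Dlx6 changed between the earlier and later comparison by -0.977 on the log2 scale (MGE minus CGE, late minus early), which passed the limma interaction test at an adjusted p of 0.0373. It was 0.06 in the early and -0.92 in the late lineage comparison. The 2 earlier groups differ in age. CGE E18.5 replicate 2 was the highest array for this gene, and the call held without that array. Of 24 alternative settings, 10 lost the call, with limma adjusted p from 0.0131 to 0.104 over all 24.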

How the results depend on the processing

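In the late lineage comparison Dlx1, Dlx5, Dlx6 and Gad1 were called in all 25 settings tried, and 4 to 6 of 7 genes in each. Scaling each array to the mean of the immature neuron genes left 0 of 7 called between the MGE stages, 0 between the CGE stages and 0 for the change of the lineage difference by limma (1, 2 and 2 at an unadjusted p under 0.05), and turned Dlx2 between the MGE stages to 0.14, Dlx2, Dlx5 and Gad1 between the CGE stages to 0.21, 0.22 and 0.0564, and the change of Slc32a1 to 0.0707. Scaling to their median gene, added after the data were seen, gave the same 3 counts of 0 (2 unadjusted in each), with Dlx2 at 0.0901 between the MGE stages, Dlx2 and Dlx5 at 0.15 and 0.16 between the CGE stages and the change of Slc32a1 at 0.0783. Between the CGE stages 0 of 7 were also called with median centring, with quantile normalisation (Dlx5 at 0.0162), with no filter, with the mean over probe sets (Gad1 at 0.0317), with array weights, with the 2 groups alone and with MGE E14.5 replicates 1 and 2, the closest pair, averaged, each with 1 or 2 unadjusted. That averaging left 0 for the change of the lineage difference (3 unadjusted), the mean over probe sets gave 4 (Slc32a1 at 0.13) and limma-trend 3. Each of mean over probe sets, limma-trend and array weights called 2 early, and array weights put Slc32a1 at -0.0162 early and its change at 0.0409. Leaving out 1 array gave 3 to 6 called between the MGE stages (3 without MGE E18.5 replicate 3), 0 to 1 between the CGE stages and 0 to 1 for the change (where 0, with 1 to 2 and 3 to 4 unadjusted), and moved Slc32a1 from -0.101 to 0.154 early, from -0.130 to 0.0995 late and from -0.196 to 0.118 in its change, and, between the CGE stages, Dlx2 from -0.0471 to 0.0037, Dlx5 from -0.0627 to 0.0537 and Gad2 from -0.0105 to 0.115. None of the values that turned sign passed the threshold, and the causes of these moves were not tested. Samples with the same replicate number did not deviate together (r -0.17 to 0.28 over 18 pairs), and a replicate block left the counts at 1 early, 5 late, 6 between the MGE stages, 1 between the CGE stages and 1 for the change. The CGE stage call of Slc32a1 was lost in 18 of 25 settings. The fall of Gad2 between the MGE stages was lost in 5 of 25 and that of Slc32a1 in 5 of 25. Addition of a pseudocount was not run, since the values are on a log scale. The 3 arrays a group limit what could be called.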

Other observations

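Between stages, 8 of 9 tested cell cycle genes were called higher in CGE E18.5 than in CGE E16.5 cells (list median 2.23) and 5 of 9 in MGE E18.5 than in MGE E14.5 cells (1.34). Of all genes, 11.4% were called higher between the MGE stages, and the share between the CGE stages was not read here. The CGE E16.5 arrays were uneven in this list, with means of 9.30, 7.97 and 7.58 for replicates 1, 2 and 3. The lowest CGE E18.5 array, replicate 1, had a mean of 9.82. In the late lineage comparison 4 of 9 were called lower in MGE cells, against 9.86% of all genes. Among them were Aurka, a mitotic kinase (-1.64, with an MGE E18.5 mean of 7.02 below the filter level of 7.10 to 7.17), and Mcm5, a replication licensing factor (-1.25). Of 4 tested genes of the lateral eminence and its neurons, 2 were called lower in MGE cells early and 3 late, against 5.91% and 9.86% of all genes. Meis2, a homeodomain factor, had means of 6.71 at MGE E14.5, below the filter level, and 8.39 at MGE E18.5, against 10.10 and 12.03 in the earlier and later CGE cells, and Foxp2 had 5.33 and 5.97, both below that level, against 7.77 and 9.23. Foxp1 was called late (-1.83) and not early (-1.40), and Tshz1 in neither (-0.56 early and 0.04 late). CGE E16.5 replicate 1 stood apart in the lateral eminence list as well, with a mean of 10.37 against 8.71 and 8.73 on the other CGE E16.5 arrays. Without that array 1 of the 7 DLX and GABA genes was called in the early lineage comparison, as with it. The 3 tested pallial glutamatergic neuron genes were called in none of the 5 comparisons by limma (at an unadjusted p under 0.05, 0 in either lineage comparison, 1 between the MGE and 2 between the CGE stages), with medians of 0.15 early and 0.20 late. Col4a1, the tested vascular gene, was lower in MGE cells early (-0.72) and higher late (0.69).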
